A study of Mus musculus with 7 samples.

Results

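The cornified envelope is the cross-linked protein shell that replaces the membrane of dying keratinocytes, and together with extracellular lipids it forms the skin barrier. The genes examined here were 37 named envelope and barrier genes, of which 35 had a probe set with a single gene symbol and were measured, out of 18193 genes on the array. Each gene was represented by whichever of its probe sets was brightest on average. They were divided into 18 early genes, active from the spinous layer on (17 measured), and 19 late genes of the granular and cornified layers (18 measured). Sprr4 and Flg2 had no such probe set, so their expression was not analysed here, and they enter only the counts of genome position and promoter motifs. The division was made for this work, and several genes span both stages.

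RNA came from flow-sorted cells positive for Cd34 and Epcam, taken from mouse skin tumours induced with DMBA, a carcinogen, and TPA, a tumour promoter. Carcinomas, the malignant form, gave 4 arrays (carcinoma GFP, 1, 2 and 3), and papillomas, the benign form, gave 3 arrays (papilloma GFP, 1 and 2). The sample descriptions put the gene name Nr2f2 before the tumour type without stating a genotype, the GFP tag is not explained, and strain, age and the number of animals are not given. The labels tie no array to an animal of its own, and the tests see only the variation among these arrays, which may be technical. The series title places repressed differentiation in the malignant state, and that is the question that the carcinoma and papilloma comparison of these genes addresses.

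In normal epidermis, keratinocytes leaving the basal layer first make scaffold proteins such as involucrin, envoplakin and periplakin, which transglutaminases bind to one another beneath the membrane. Loricrin, the filaggrin family and the late cornified envelope proteins are added later, in granular cells, while lipoxygenases, a lipid transporter and an elongase build the lipid layer. Kallikrein proteases and their inhibitors then control the shedding of cornified cells.

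Both arrays with GFP in the title stood apart from the 5 untagged arrays. All 15 of 15 endothelial markers and 12 of 13 measured fibroblast markers passed the test as higher in them, and the mean log2 level of the endothelial list was 10.72 and 10.73 in the GFP arrays, against 5.42 to 5.87 in the untagged ones. Fibroblast markers averaged 10.22 to 11.33 with the tag and 5.44 to 7.10 without it, and 5 of 11 immune and 2 of 7 melanocyte markers were also called higher, against 0 of 6 sebocyte markers. Of 11 hair shaft and root sheath markers 1 was called lower, Padi3, which also stands in a list of proteases and related enzymes below. Over all 18193 genes 11.9% were called higher and 7.93% lower, and the sebocyte and hair counts of calls do not stand apart from these shares. Both GFP arrays lay below every untagged array for 5 of 11 hair markers and 1 of 6 sebocyte markers, against 19.9% of all genes. The 9 basal keratinocyte markers averaged 10.46 to 10.61 in the GFP arrays and 11.46 to 12.09 in the untagged arrays, and 5 of them were called lower. Of the proteins used for the sort, Epcam fell by 2.40 (SE 0.47, limma adjusted p = 0.0144) in the GFP arrays. Cd34 rose by 1.81 (SE 0.50, limma adjusted p = 0.0473). The 3' minus 5' difference of the Gapdh control probe sets, which grows as labelled RNA shortens, was 3.19 in both GFP arrays and -0.04 to 0.06 in the others.

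All values are log2 levels after RMA, so 1 unit is a factor of 2. Levels of different genes depend on their probes and are not set against each other. The highest and lowest array lay over 2 units apart for 15 of 17 early and 9 of 18 late genes, and under 1 unit apart for 0 early and 8 late genes.

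**Figure D1:**
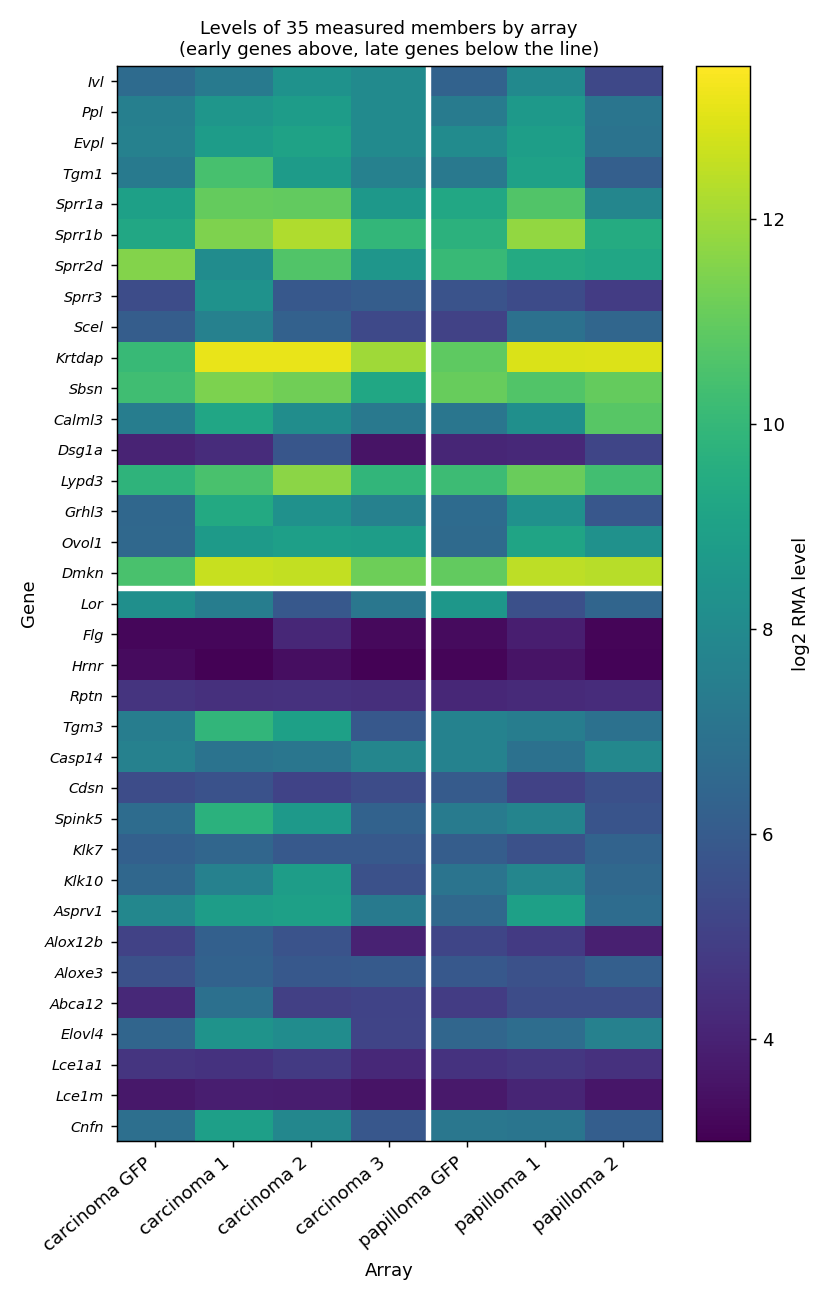
Log2 RMA level of the 35 measured genes (rows, early genes above and late genes below the white line) in the 7 arrays (columns, 4 carcinoma arrays left of 3 papilloma arrays). Colours compare arrays within a row, not genes with each other; rows such as Hrnr, Rptn and Lce1m are nearly uniform across the columns, whereas Krtdap and Ovol1 are lower in both GFP columns.

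Several of the proteins that define the finished envelope gave low and nearly flat signals. Flg, which encodes the precursor of filaggrin, lay at 3.19 in carcinoma GFP and at 3.17, 4.19 and 3.25 in carcinoma 1, 2 and 3, against 3.31, 3.86 and 3.14 in papilloma GFP, 1 and 2. Carcinoma 2 and papilloma 1 were the upper arrays, and the tumour types overlapped (difference 0.01, SE 0.32). Hrnr, a relative of filaggrin, ranged over 0.50 units in all 7 arrays, the late cornified envelope genes Lce1a1 and Lce1m over 0.55 and 0.53, and Rptn, another fused S100 protein, over 0.42. No detection calls were used here, so a low level of these genes cannot be told from background signal.

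No early or late gene passed the test between carcinoma and papilloma. In bulk samples such as these, fewer differentiated cells and less RNA of these genes per cell cannot be told apart. Over all genes limma called 0 of 18193 (percent called 0), and 112 genes had an unadjusted p under 0.05 (0.616%), none of them among the 35. This fit has no tag term, so differences between GFP and untagged arrays enter its standard errors. With the GFP tag as a covariate limma again called 0 genes. Of the early genes 11 of 17 had a higher carcinoma mean, with a median difference of 0.24 log2 units (range -0.68 to 1.11). Of the late genes 12 of 18 had a higher carcinoma mean, with a median of 0.07 (range -0.13 to 0.90). For all genes the share with a higher carcinoma mean was 46.9% and the median -0.015. Among the untagged arrays the medians were 0.12 for the early genes (9 of 17 higher) and 0.16 for the late genes (14 of 18 higher). For all genes the median there was -0.046, with 7655 of 18193 higher. Within the GFP pair the early and late medians were -0.17 (6 of 17) and -0.10 (5 of 18), against 0.05 for all genes (10353 of 18193). The difference between these effects was tested as an interaction. The GFP arm holds 1 carcinoma and 1 papilloma array, so the untagged arrays alone supply the spread of this test. It called 0 of 18193 genes (2.14% at an unadjusted p under 0.05), and the smallest unadjusted p of a member was 0.218.

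**Figure D2:**
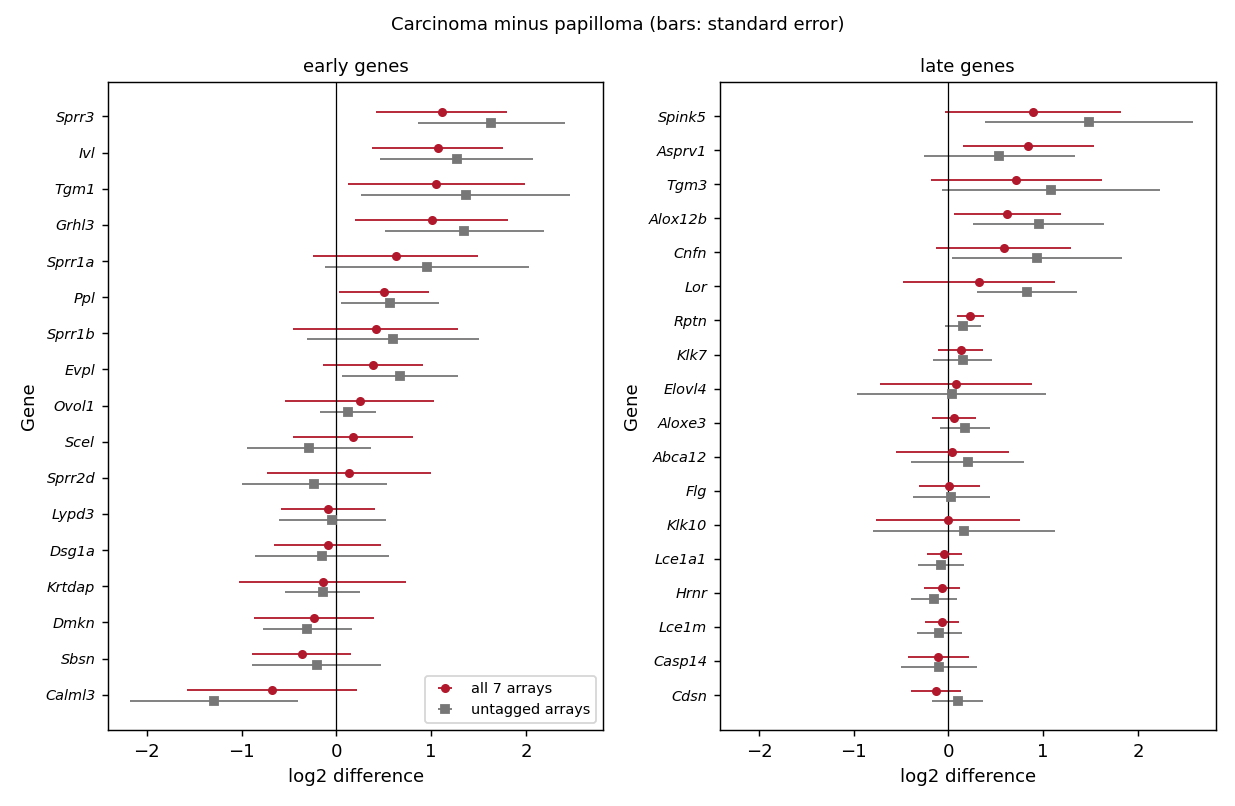
Carcinoma minus papilloma log2 difference for each early gene (left) and late gene (right), with its standard error, from all 7 arrays (red circles) and from the 5 untagged arrays (grey squares). Sprr3, Ivl, Tgm1 and Grhl3 lie near 1 unit among the early genes and Spink5 leads the late genes at 0.90, with wide standard errors.

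Of the scaffold proteins and their cross-linking enzyme, Ivl and Tgm1 had the largest differences. Ivl, involucrin, lay at 6.65 in carcinoma GFP and at 7.31, 8.36 and 8.02 in carcinoma 1, 2 and 3, against 6.30, 7.99 and 5.27 in papilloma GFP, 1 and 2. Carcinoma averaged 7.59 ± 0.76 (SD, n = 4), papilloma 6.52 ± 1.37 (SD, n = 3), and limma put the difference at 1.07 (SE 0.69, adjusted p = 1). The groups overlapped, with papilloma 1 among the higher carcinoma arrays. Its second probe set differed by 0.58. Tgm1, the membrane-bound transglutaminase, lay at 7.29 in carcinoma GFP and at 10.46, 8.76 and 7.61 in carcinoma 1, 2 and 3, against 7.27, 8.99 and 6.16 in papilloma GFP, 1 and 2. Carcinoma 1 stood highest and papilloma 2 lowest, with overlap between them (difference 1.06, SE 0.94). Without papilloma 2 the differences were 0.44 for Ivl and 0.40 for Tgm1. The plakins Ppl and Evpl, which anchor the scaffold to keratin filaments, differed by 0.51 (SE 0.47) and 0.38 (SE 0.53), and sciellin, Scel, a precursor of the envelope, by 0.17 (SE 0.63).

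The small proline-rich proteins, which serve as cross-bridges between envelope proteins, did not share one pattern. Sprr3 lay at 5.45 in carcinoma GFP and at 8.36, 5.88 and 6.08 in carcinoma 1, 2 and 3, against 5.71, 5.41 and 4.87 in papilloma GFP, 1 and 2. Carcinoma 1 alone stood far above the rest, and the difference of 1.11 (SE 0.69, limma adjusted p = 1) was 0.47 without it. Sprr1a and Sprr1b differed by 0.62 (SE 0.87) and 0.41 (SE 0.87), and each turned to -0.09 when 1 array was left out, Sprr1a without papilloma 2 and Sprr1b without carcinoma 2. Sprr2d lay at 11.54 in carcinoma GFP and at 8.10, 10.64 and 8.52 in carcinoma 1, 2 and 3, against 10.07, 9.43 and 9.20 in papilloma GFP, 1 and 2. Its carcinoma arrays spanned the whole papilloma range (difference 0.13, SE 0.86). Sprr2 genes are near-identical copies, so the signal of Sprr2d may include relatives.

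Both transcription factors on the early list act in the differentiation programme. Grhl3, a grainyhead-like factor required for barrier formation, lay at 6.51 in carcinoma GFP and at 9.38, 8.31 and 7.60 in carcinoma 1, 2 and 3, against 6.67, 8.31 and 5.84 in papilloma GFP, 1 and 2. The 2 groups overlapped, with carcinoma 1 highest and papilloma 2 lowest (means 7.95 ± 1.21, SD, n = 4, and 6.94 ± 1.26, SD, n = 3; difference 1.005, SE 0.81, limma adjusted p = 1). Without papilloma 2 it was 0.45. Ovol1, a zinc finger factor that restrains progenitor growth, differed by 0.24 (SE 0.79), and by 0.06 (SE 0.23) with the GFP tag as a covariate.

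Calml3, a calmodulin-like protein of differentiating epithelia, had the largest difference in the other direction. It lay at 7.46 in carcinoma GFP and at 9.23, 8.14 and 7.26 in carcinoma 1, 2 and 3, against 7.11, 8.24 and 10.76 in papilloma GFP, 1 and 2. Papilloma 2 stood highest, and the difference of -0.68 (SE 0.90) became 0.35 without that array. Secreted and surface proteins of suprabasal cells had differences smaller than their standard errors in this fit without a tag term. These were Krtdap at -0.15 (SE 0.88), Sbsn at -0.37 (SE 0.53), Dmkn at -0.23 (SE 0.63) and Lypd3 at -0.09 (SE 0.50). With the GFP tag as a covariate they were -0.34 (SE 0.33), -0.38 (SE 0.53), -0.36 (SE 0.36) and -0.15 (SE 0.44). Dsg1a, a desmosomal cadherin read from a dim probe set, differed by -0.09 (SE 0.56).

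**Figure D3:**
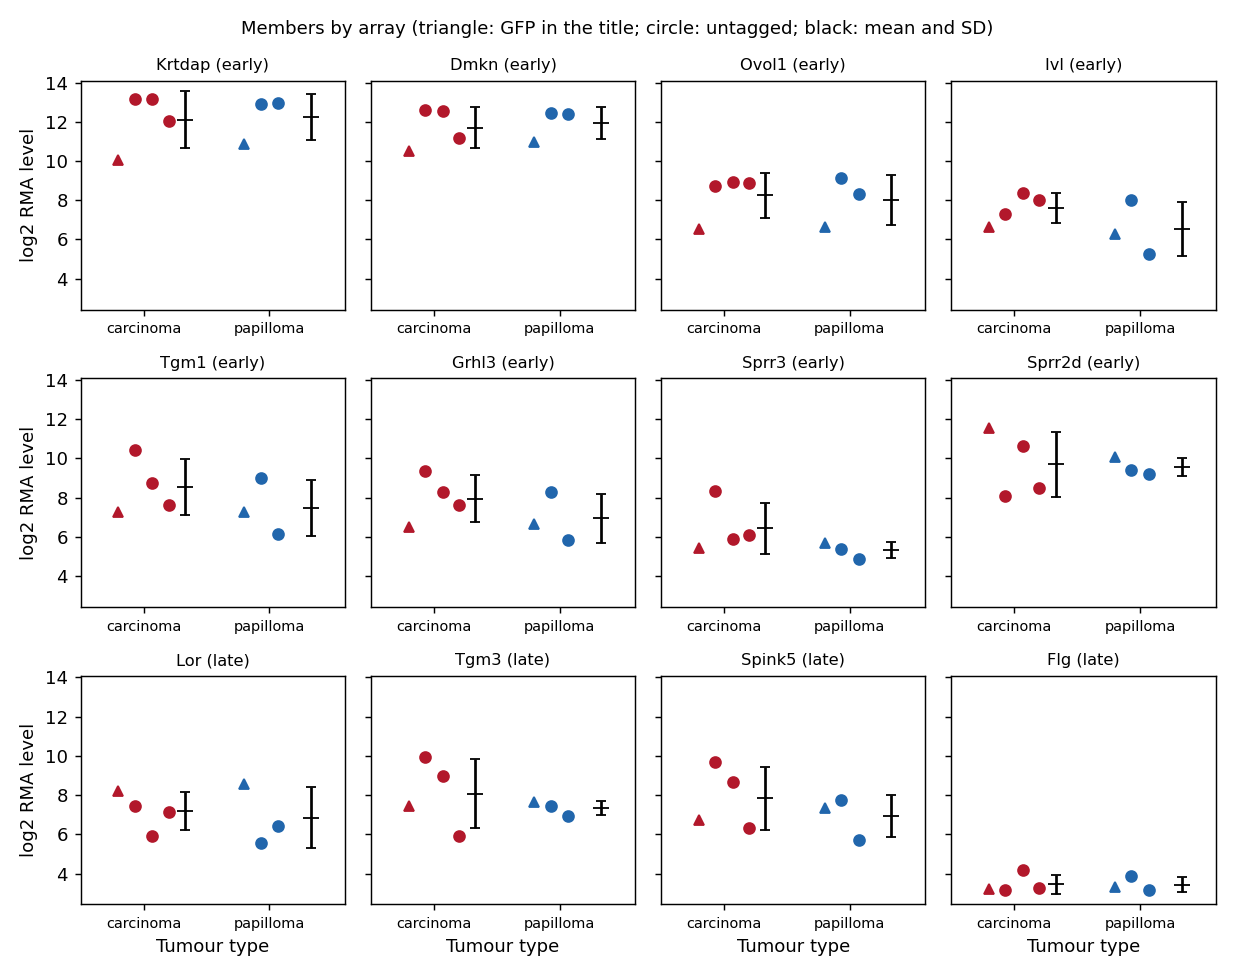
Log2 RMA level of 12 of the genes in each array, with carcinoma (red) left of papilloma (blue), triangles for the GFP arrays, circles for the untagged arrays and black bars for the group mean and SD (n = 4 and n = 3). Krtdap, Dmkn and Ovol1 have both triangles below all circles, Lor has both above, and Flg stays near 3 to 4 units.

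Among the late genes, loricrin (Lor), the main protein of the finished envelope, lay at 8.22 in carcinoma GFP and at 7.43, 5.91 and 7.15 in carcinoma 1, 2 and 3, against 8.57, 5.57 and 6.43 in papilloma GFP, 1 and 2. Both GFP arrays were the highest, and the tumour types overlapped (difference 0.32, SE 0.81). Without the GFP arrays the difference was 0.83 (SE 0.53, limma adjusted p = 1).

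Proteases and inhibitors of the late stage were led by Spink5, an inhibitor of kallikreins. It lay at 6.71 in carcinoma GFP and at 9.69, 8.67 and 6.32 in carcinoma 1, 2 and 3, against 7.37, 7.76 and 5.73 in papilloma GFP, 1 and 2. Carcinoma averaged 7.85 ± 1.604 (SD, n = 4), papilloma 6.95 ± 1.08 (SD, n = 3), and limma put the difference at 0.90 (SE 0.93, adjusted p = 1). Carcinoma GFP and carcinoma 3 lay below papilloma GFP and papilloma 1. Asprv1, an aspartic protease that acts on profilaggrin, lay at 7.86 in carcinoma GFP and at 8.83, 8.97 and 7.33 in carcinoma 1, 2 and 3, against 6.54, 8.96 and 6.72 in papilloma GFP, 1 and 2. Papilloma 1 matched the upper carcinoma arrays, and the difference was 0.84 (SE 0.69). The kallikreins Klk7 and Klk10 differed by 0.13 (SE 0.24) and -0.005 (SE 0.76), Cdsn, corneodesmosin, by -0.13 (SE 0.26), and Casp14, a caspase of cornification, by -0.11 (SE 0.32). The second probe set of Casp14 gave -0.66 and did not follow the first.

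Tgm3, a transglutaminase that acts inside the cell, lay at 7.45 in carcinoma GFP and at 9.93, 8.95 and 5.91 in carcinoma 1, 2 and 3, against 7.66, 7.43 and 6.93 in papilloma GFP, 1 and 2. The carcinoma arrays surrounded the papilloma arrays (difference 0.72, SE 0.91). Cnfn, cornifelin, an envelope component, lay at 6.84 in carcinoma GFP and at 8.94, 7.87 and 5.87 in carcinoma 1, 2 and 3, against 7.14, 7.10 and 6.15 in papilloma GFP, 1 and 2 (difference 0.58, SE 0.72). Its carcinoma arrays came in the same order as for Tgm3, with carcinoma 1 and 2 above and carcinoma 3 below all papilloma arrays. Without carcinoma 1 the differences were 0.10 for Tgm3, 0.06 for Cnfn and 0.28 for Spink5. In the chosen probe sets, Rptn had groups that did not overlap, at 4.58, 4.44, 4.51 and 4.41 in carcinoma GFP, 1, 2 and 3, against 4.16, 4.26 and 4.34 in papilloma GFP, 1 and 2. Its other probe sets overlapped between the groups, with differences of 0.02 and -0.04, and the mean of its probe sets differed by 0.07. The first was a difference of 0.23 (SE 0.14) at a dim level, and 1 of 35 genes compares with 1.42% of all genes without overlap.

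Genes of the lipid barrier gave no common pattern. Alox12b, a lipoxygenase that processes barrier ceramides, lay at 5.09 in carcinoma GFP and at 6.23, 5.67 and 4.004 in carcinoma 1, 2 and 3, against 5.18, 4.77 and 3.93 in papilloma GFP, 1 and 2. Carcinoma 1 and 2 stood above every papilloma array while carcinoma 3 was near papilloma 2 (difference 0.62, SE 0.56). Abca12, the transporter that loads lipids into lamellar bodies, lay at 4.21 in carcinoma GFP and at 6.88, 5.001 and 5.11 in carcinoma 1, 2 and 3, against 4.86, 5.45 and 5.46 in papilloma GFP, 1 and 2 (difference 0.04, SE 0.60). Its level in carcinoma 1 stood above all other arrays. Elovl4, an elongase for very long fatty acids, lay at 6.45 in carcinoma GFP and at 8.38, 8.09 and 5.17 in carcinoma 1, 2 and 3, against 6.47, 6.76 and 7.60 in papilloma GFP, 1 and 2 (difference 0.08, SE 0.80), so that the highest and the lowest level were both in carcinoma. Aloxe3, the partner of Alox12b, differed by 0.06 (SE 0.23).

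These differences moved with single arrays. When each array was left out in turn, the difference ranged from 0.44 to 1.80 for Ivl, 0.19 to 0.996 for Ppl, 0.40 to 1.81 for Tgm1 and 0.45 to 1.69 for Grhl3, in each case lowest without papilloma 2 and highest without papilloma 1. Asprv1 ranged from 0.41 without papilloma GFP to 1.62 without papilloma 1. Carcinoma 3 set the upper end for Spink5 (0.28 to 1.41), Tgm3 (0.10 to 1.43), Cnfn (0.06 to 1.08) and Alox12b (0.27 to 1.04), each highest without it. Among the 5 untagged arrays the differences were 1.27 for Ivl, 1.36 for Tgm1, 1.64 for Sprr3, 1.35 for Grhl3 and -1.29 for Calml3. For the late genes they were 1.48 for Spink5, 0.54 for Asprv1, 1.08 for Tgm3, 0.94 for Cnfn and 0.95 for Alox12b, and limma called none of them.

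Arrays of the same tumour type lay far apart in the early genes. The median deviation of the 17 early genes from their own means was 0.80 in carcinoma 1, 0.79 in carcinoma 2, -0.60 in carcinoma 3 and -0.65 in carcinoma GFP, against 0.68 in papilloma 1, -0.44 in papilloma 2 and -0.81 in papilloma GFP. Over all genes this median stayed between -0.06 and 0.04 in every array. Among the untagged arrays, the lowest level of an early gene was in papilloma 2 or carcinoma 3 for 16 of 17 genes, and the highest in carcinoma 1 or carcinoma 2 for 15 of 17. For the late genes these counts were 10 and 15 of 18. These arrays were named after the values were seen, and the share over all genes was not computed. The late medians were 0.40 in carcinoma 1, 0.19 in carcinoma 2, -0.20 in carcinoma 3 and -0.06 in carcinoma GFP, against -0.08 in papilloma 1, -0.14 in papilloma 2 and -0.06 in papilloma GFP. In the 8 late genes brighter than the median gene they were 1.17, 1.09, -1.20 and -0.30 in carcinoma 1, 2, 3 and GFP. In papilloma 1, 2 and GFP they were -0.13, -0.71 and -0.09. A wide spread among arrays of the same tumour type was thus not particular to the early genes. Basal keratinocyte markers averaged 12.09 in carcinoma 3 and 11.46 in papilloma 2, against 11.95 in carcinoma 1 and in carcinoma 2 and 12.05 in papilloma 1.

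**Figure D4:**
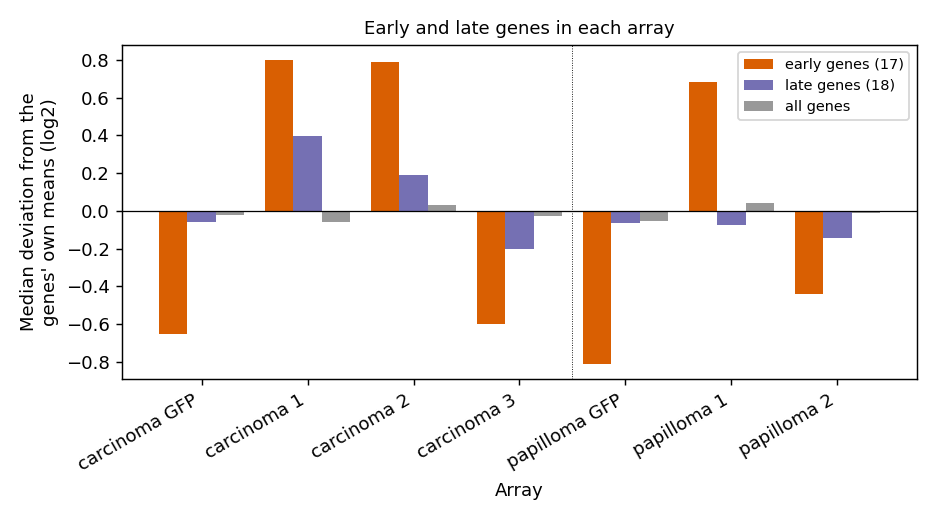
Median deviation of the early genes (orange, 17), the late genes (purple, 18) and all genes (grey, 18193) from their own means over the 7 arrays, in log2 units, for each array, with carcinoma left of papilloma. Early genes lie above 0.6 in carcinoma 1, carcinoma 2 and papilloma 1 and below -0.4 in the other 4 arrays.

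The GFP arrays had lower levels of most early genes than the untagged arrays, and 3 of these passed the test. With tumour type in the model, 16 of 17 early genes and 12 of 18 late genes were lower in the GFP arrays, with median differences of -0.82 and -0.12, against 54.7% of all genes and a median of -0.05. limma called 3601 of 18193 genes (19.8%), 2159 higher (11.9%) and 1442 lower (7.93%). Of the early genes 3 of 17 were called lower and 0 higher, and of the late genes 0 of 18 were called lower and 1 higher. Both GFP arrays lay below every untagged array for 3 of 17 early genes and 1 of 18 late genes, against 19.9% of all genes, and above every untagged array for 0 of 17 early and 1 of 18 late genes, against 21% of all genes. These non-overlap shares lie below those of all genes. The 3 early genes called lower, Krtdap, Dmkn and Ovol1, are the same 3 that lay below every untagged array. They make up 17.6% of the class, against 7.93% of all genes for the call and 19.9% for the non-overlap. Centring each array on its own median shifts the median of all genes by -0.23, and with it the early median was -1.05 and the late median -0.35.

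Krtdap, a secreted protein of differentiating keratinocytes, had the largest difference. Carcinoma GFP read 10.07 and papilloma GFP read 10.89, while carcinoma 1, 2 and 3 read 13.14, 13.16 and 12.02 and papilloma 1 and 2 read 12.89 and 12.95. Both GFP arrays were below every untagged array, and the gene fell by 2.39 log2 units (SE 0.36, limma adjusted p = 0.00513, and 0.000394 to 0.11 over the alternatives). Without carcinoma GFP the call ended (adjusted p = 0.11). Dmkn, dermokine, an epidermal secreted protein, was chosen for its call after its values were seen. Carcinoma GFP had 10.50 and papilloma GFP had 10.98, while carcinoma 1, 2 and 3 had 12.60, 12.53 and 11.18 and papilloma 1 and 2 had 12.43 and 12.38. It fell by 1.52 (SE 0.40, limma adjusted p = 0.0391, and 0.002 to 0.306 over the alternatives), and the call ended when any 1 array other than carcinoma 3 was left out.

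Ovol1 kept its call in all 12 alternatives. Carcinoma GFP was at 6.55 and papilloma GFP at 6.63, against 8.74, 8.91 and 8.86 in carcinoma 1, 2 and 3 and 9.14 and 8.30 in papilloma 1 and 2. Both GFP arrays were well below the others, and the gene fell by 2.20 (SE 0.25, limma adjusted p = 0.00166, and 4.7e-05 to 0.0468 over the alternatives). Its second, dimmer probe set differed by -0.65, with papilloma GFP above papilloma 2. Other early genes did not pass: Calml3 differed by -1.52 (SE 0.81), Sprr1b by -1.45 (SE 0.79), Grhl3 by -1.21 (SE 0.77), Tgm1 by -1.02 (SE 0.97) and Ivl by -0.82 (SE 0.70). Sbsn differed by -0.09 (SE 0.59). With array weights limma also called Sprr1b (-2.13, adjusted p = 0.0135), Grhl3 (adjusted p = 0.0224), Ivl (adjusted p = 0.0395) and Ppl (adjusted p = 0.014). Ivl and Ppl were called without papilloma 2 as well (adjusted p = 0.0315 and adjusted p = 0.035).

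Lor and Sprr2d ran the other way. Lor reached 8.22 in the carcinoma and 8.57 in the papilloma GFP array, above all untagged arrays, which lay between 5.57 and 7.43, and it rose by 1.94 (SE 0.50, limma adjusted p = 0.037, and 0.00562 to 0.311 over the alternatives). The call ended without either GFP array, without papilloma 1, papilloma 2 or carcinoma 2, when arrays were centred on their medians (1.71, adjusted p = 0.0629) and with the mean of its probe sets (1.06, adjusted p = 0.102). Its other probe sets differed by 1.40 and -0.16. Mean Sprr2d was 10.80 with the tag and 9.18 without it (difference 1.65, SE 0.72, adjusted p = 0.172), with 10.64 in carcinoma 2 above papilloma GFP. Among the late genes Abca12 had both GFP arrays below the others (difference -1.05, SE 0.53, adjusted p = 0.229, and 0.047 without carcinoma 1), Asprv1 differed by -0.88 (SE 0.69) and Elovl4 by -0.74 (SE 0.85). These differences stand beside the endothelial and fibroblast signal and the 3' to 5' difference of the same arrays, and the part of either in them was not tested.

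**Figure D5:**
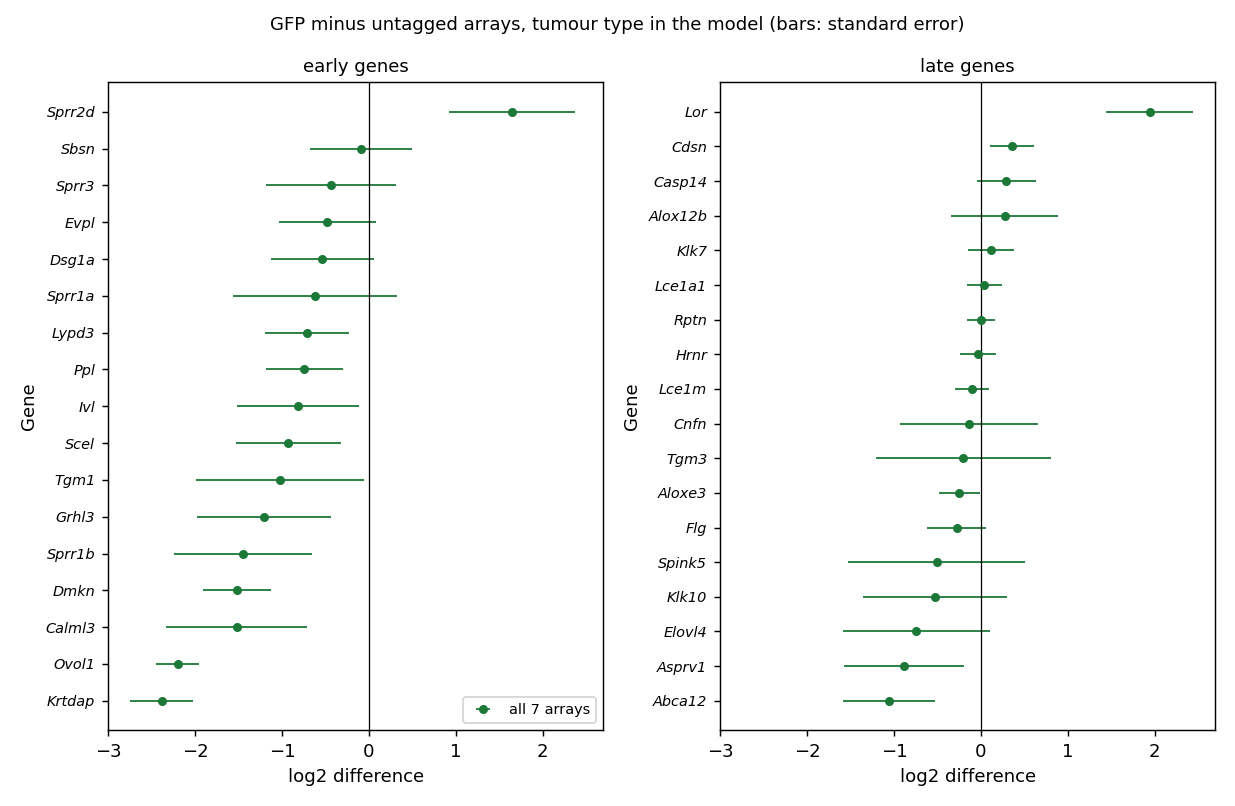
GFP minus untagged log2 difference with its standard error for each early gene (left) and late gene (right), with tumour type in the model. Most early genes lie left of 0, down to -2.39 for Krtdap, while Sprr2d at 1.65 and Lor at 1.94 lie right of it.

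Position in the genome was not part of how the genes were chosen. By RefSeq annotation of GRCm38.p6, 13 of the 37 genes lie in one stretch of chromosome 3, the epidermal differentiation complex, and Sbsn, Dmkn and Krtdap follow one another on chromosome 7 with 0 coding genes between them. The 11 measured genes of chromosome 3 had a median GFP minus untagged difference of -0.10, against -0.62 for the 24 others, and median tumour type differences of 0.23 and 0.10. Neighbours did not share one pattern: Krtdap and Dmkn were both called lower in the GFP arrays, whereas Sbsn beside them differed by -0.09.

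Promoter sequence was compared for the same genes. RefSeq windows of the 250 bases before a transcript start (assembly GRCm38.p6) were found for 13 early and 17 late genes. Ppl, Evpl, Calml3, Dsg1a, Ovol1, Spink5 and Aloxe3 had no window. A gene with several windows, such as Dmkn, counted if any of them held a motif. The AP-1 motif TGANTCA, bound by Fos and Jun proteins, occurred on either strand in 8 of 13 early genes (61.5%) and 4 of 17 late genes (23.5%), and in 7.82% of the 27025 genes with a window. The early ones were Sprr2d, Sprr1b, Sprr1a and Ivl on chromosome 3, the neighbours Sbsn, Dmkn and Krtdap on chromosome 7, and Scel. The late ones, Lor, Flg, Flg2 and Rptn, all lie on chromosome 3. Genes of 1 cluster are counted singly, so these shares are not those of independent genes. The box TATAAA on the gene strand occurred in 6 of 13 early and 6 of 17 late genes and in 8.94% of all genes. The grainyhead motif AACCNGTT was found in 0 early and 1 late gene (2% of all genes), and the KLF motif GGGTGNG in 5 of 13 and 7 of 17 (30% of all genes). The KLF match in Sprr1a overlaps an AP-1 match. A match describes letters only. The windows below belong to the scaffold gene Ivl, Sprr1a and Sprr1b, which flank Sprr3, the called gene Krtdap and the oppositely placed Lor. Each of them holds both the AP-1 motif and the TATA box, so they do not stand for all the genes. The window of Sprr3 itself has a TATA box and no AP-1 motif, and the windows of Tgm1 and Grhl3 have neither. Capitals mark the AP-1 motif and the TATA box.
Ivl: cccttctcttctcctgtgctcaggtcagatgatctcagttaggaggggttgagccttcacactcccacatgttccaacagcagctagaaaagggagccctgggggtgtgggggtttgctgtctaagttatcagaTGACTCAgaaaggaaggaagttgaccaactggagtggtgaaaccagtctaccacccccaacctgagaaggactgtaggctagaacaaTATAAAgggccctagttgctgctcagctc
Sprr1a: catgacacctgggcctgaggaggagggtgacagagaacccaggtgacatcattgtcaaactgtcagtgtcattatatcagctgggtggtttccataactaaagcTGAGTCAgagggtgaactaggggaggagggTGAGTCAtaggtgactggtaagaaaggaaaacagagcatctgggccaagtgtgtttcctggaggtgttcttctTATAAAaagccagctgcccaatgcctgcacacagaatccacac
Sprr1b: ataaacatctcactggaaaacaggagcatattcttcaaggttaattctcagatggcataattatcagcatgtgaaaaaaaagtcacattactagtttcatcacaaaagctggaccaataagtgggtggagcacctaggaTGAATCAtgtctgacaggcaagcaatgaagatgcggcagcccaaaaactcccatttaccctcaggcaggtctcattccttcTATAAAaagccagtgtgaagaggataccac
Krtdap: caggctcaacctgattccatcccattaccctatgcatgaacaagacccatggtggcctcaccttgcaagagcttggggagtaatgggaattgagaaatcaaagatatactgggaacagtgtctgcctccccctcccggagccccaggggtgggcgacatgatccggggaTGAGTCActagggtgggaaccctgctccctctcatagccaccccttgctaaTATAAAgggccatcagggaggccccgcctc
Lor: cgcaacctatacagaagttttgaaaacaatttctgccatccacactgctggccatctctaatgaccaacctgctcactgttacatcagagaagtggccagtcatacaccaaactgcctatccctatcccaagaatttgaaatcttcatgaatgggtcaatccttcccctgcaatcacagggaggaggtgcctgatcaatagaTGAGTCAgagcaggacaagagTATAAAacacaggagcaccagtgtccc
They lie at chr3:92573736-92573985 on the minus strand for Ivl, chr3:92485882-92486131 on the minus strand for Sprr1a, chr3:92438780-92439029 on the minus strand for Sprr1b, chr7:30787655-30787904 on the plus strand for Krtdap and chr3:92083143-92083392 on the minus strand for Lor. The AP-1 match began 116 bases before the start in Ivl, 146 and 116 in Sprr1a, 111 in Sprr1b, 81 in Krtdap and 48 in Lor, and the TATA box between 43 and 27 bases before it. Krtdap and Lor, whose levels differed in opposite directions in the GFP arrays, both held the letters TGAGTCA. Any relation of the motif to the GFP differences was not tested.

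Other differentiation and barrier genes, listed from textbook roles, also gave 0 calls between the tumour types in any of 5 lists. Of 11 measured suprabasal keratin and desmosome genes, 5 had a higher carcinoma mean (median -0.18). Krt1 and Krt10, the keratin pair of the spinous layer, differed by -2.53 (SE 1.08) and -1.39 (SE 0.66), opposite in sign to Ivl and Tgm1, and Dsc1, a desmosomal cadherin of upper layers, by -1.05 (SE 0.64). Krt1 lay at 8.81 in carcinoma GFP and at 5.08, 9.76 and 7.197 in carcinoma 1, 2 and 3, against 9.84, 9.79 and 11.09 in papilloma GFP, 1 and 2. Every carcinoma array was below every papilloma array, and carcinoma 1, where Tgm1, Grhl3, Sprr3 and Spink5 were highest, had the lowest Krt1. The groups did not overlap for the regulator Pou2f3 and for Blmh either, with carcinoma below, nor for 1.42% of all genes. limma gave Krt1 an unadjusted p of 0.0524 and did not call it.

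Of 15 regulators 7 had a higher carcinoma mean (median -0.08), with Gata3 at -1.03 (SE 0.92), Hopx at -0.97 (SE 0.56) and Ehf at 0.91 (SE 0.69). Among 25 other envelope genes 11 were higher (median -0.02), with Tchh, trichohyalin, at 0.59 (SE 0.72), Anxa1 at 0.43 (SE 0.23) and Lce3f at -0.38 (SE 0.40). Of 16 proteases, inhibitors and protein-modifying enzymes 9 were higher (median 0.05), with Klk11 at 0.75 (SE 0.92), Blmh, a hydrolase that breaks down filaggrin, at -0.73 (SE 0.31) and Padi3 at 0.68 (SE 0.70). Of 19 lipid genes 7 were higher (median -0.12), with Lipm at -1.30 (SE 0.51, unadjusted p = 0.0369, limma adjusted p = 1), Ugcg at 0.72 (SE 0.61) and Alox12e at -0.72 (SE 0.37). Among the untagged arrays each gene named from these lists had the same sign, with Gata3 at -1.999 and Krt1 at -3.09. Within the GFP pair Gata3 was at 1.02, Alox12e at 0.51, Lce3f at 0.39, Tchh at -0.22 and Klk11 at -0.14, opposite to the values above.

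Between the GFP and the untagged arrays some genes of each list passed the test. Of all genes 7.93% were called lower and 11.9% higher. Called lower were 4 of 11 suprabasal keratin and desmosome genes, 3 of 15 regulators and 3 of 25 envelope genes. So were 4 of 16 proteases, inhibitors and protein-modifying enzymes, and 0 of 19 lipid genes. Called higher were 1 of 15 regulators and 1 of 19 lipid genes. The desmosome genes Dsc3 (-1.87, SE 0.22), Perp (-1.37, SE 0.15), Jup and Dsp fell, 4 of 11 genes. Of the regulators Cebpb (-2.86, SE 0.23), Ehf (-1.67, SE 0.43) and Elf3 fell and Prdm1 rose (1.26, SE 0.33). Of the envelope genes Csta1 (-2.44, SE 0.56), Lce3b and Lce3c (-1.46, SE 0.22) fell, while Sprr2f, a relative of Sprr2d, and Tchh differed by 2.02 (SE 1.12) and -1.64 (SE 0.50) without passing. The proteases Klk11 (-2.19, SE 0.59), Klk8 (-1.94, SE 0.23) and Klk9 and the deiminase Padi3 (-1.91, SE 0.25) fell, and Degs1, a ceramide desaturase, rose (0.96, SE 0.17). In the lipid list Smpd1 differed by 1.14 (SE 0.52) and Cers3 by -1.07 (SE 0.57). Every gene of these lists that was called lower had both GFP arrays below every untagged array, as had 19.9% of all genes, called or not. The call and this order of the arrays rest on the same values, so the order adds nothing to the call.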

How the data were processed

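The authors normalized the arrays with RMA, per the labels' protocols, and deposited 1 table of log2 values from 2.72 to 14.51; the log2 scale was read from the values. RMA and affy appear in the submitters' processing notes, with versions not given in the sources used here. Array medians lay between 5.38 and 5.50. The number of arrays limits the precision.

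The table holds 45101 probe sets. Those with 1 symbol in the platform annotation (34945 without controls) were named through gene identifiers in the RefSeq table of GRCm38.p6, and the probe set with the highest mean represented each of 18193 genes. All genes were fitted with limma 3.58.1 in R 4.3.3 (lmFit, eBayes, two-sided), with Benjamini-Hochberg adjustment over all genes and a threshold of 0.05. Carcinoma against papilloma had no covariate, and GFP against untagged arrays had tumour type as a covariate. The procedure was tested on simulated data. Figures used matplotlib 3.10.9.

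The genes, their classes and the other lists were chosen with earlier results of these data known. Per-array values are given for Ivl, Tgm1, Lor and Flg and for the 5 genes per class with the largest tumour type difference and the 4 with the largest GFP difference. Rptn, Dmkn and Krt1 were added after their values were seen. Of the other lists, Krt1, Krt10 and up to 3 genes per list and comparison were named, besides called genes.

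Both groups share numbers 1 and 2 and the GFP tag. Because of these shared names, they were treated as pairs in an alternative fit. Across genes, residuals from the group means of same-named arrays correlated at 0.476, 0.194 and 0.861. Differently named untagged arrays correlated at 0.207 to 0.683. The residuals also carry the split between GFP and untagged arrays, so these correlations cannot show a pairing. The labels give no reason for a pairing, and carcinoma 2 and papilloma 1 correlated at 0.683. Carcinoma 3 has no partner and adds nothing to the blocked difference. Alternatives were a replicate block, the GFP tag as a covariate, left-out arrays, array weights, median centring, averaged probe sets and a filter on dim genes.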

Additional observations from a re-analysis of the deposited data

Results flagged for a closer look

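In 5 of 70 groups of values tested among the carcinoma arrays and among the untagged arrays, 1 array stood far from the others by Dixon's criterion, which chance alone meets in about 1 of 20 groups. Krtdap and Dmkn were lower in carcinoma 3, at 12.02 and 11.18, than in the other untagged arrays, which lay between 12.89 and 13.16 for Krtdap and between 12.38 and 12.60 for Dmkn. Ovol1 was lower in carcinoma GFP, at 6.55, than in the other carcinoma arrays, at 8.74 to 8.91. Flg was higher in carcinoma 2, at 4.19, than in the other carcinoma arrays, at 3.17 to 3.25. Abca12 was higher in carcinoma 1, at 6.88, than in the other untagged arrays, at 5.001 to 5.46.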

How the results depend on the processing

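Between the tumour types 0 genes were called in any of 14 alternatives, and 11 of 35 genes (Ivl, Ppl, Tgm1, Sprr3, Grhl3, Rptn, Tgm3, Spink5, Asprv1, Alox12b and Cnfn) had the higher mean in carcinoma in each of those run for them, while 24 changed sign in at least 1. Sprr3, Rptn and Alox12b had 13, since the filter on dim genes removes them. The early median ranged from 0.03 to 0.80 and the late median from 0.02 to 0.45. The replicate block, to which carcinoma 3 adds nothing, changed no call (medians 0.50 and 0.23). With genes above the median gene only, the late median was 0.45, from 8 genes. Differences changed sign when 1 array was left out, with ranges of Abca12 -0.49 to 0.40, Aloxe3 -0.081 to 0.19, Calml3 -1.48 to 0.35, Casp14 -0.40 to 0.098, Cdsn -0.38 to 0.11, Dmkn -0.71 to 0.17, Dsg1a -0.55 to 0.25, Elovl4 -0.38 to 0.70, Evpl -0.10 to 0.84, Flg -0.24 to 0.22, Hrnr -0.15 to 0.076, Klk10 -0.57 to 0.51, Klk7 -0.079 to 0.29, Krtdap -0.82 to 0.53, Lce1a1 -0.12 to 0.063, Lce1m -0.17 to 0.070, Lor -0.32 to 1.18, Lypd3 -0.49 to 0.20, Ovol1 -0.45 to 0.82, Sbsn -0.67 to 0.063, Scel -0.37 to 0.56, Sprr1a -0.091 to 1.32, Sprr1b -0.086 to 1.15 and Sprr2d -0.48 to 0.67. They also changed sign with the replicate block (Sbsn 0.063, Dsg1a 0.21, Lypd3 0.10, Klk10 0.51 and Lce1a1 0.063), the GFP tag as a covariate (Flg -0.012 and Abca12 -0.048), array weights (Krtdap 0.30, Sbsn 0.065, Dsg1a 0.42, Lypd3 0.12, Dmkn 0.095 and Klk10 0.36), median centring (Klk10 0.001) and without both GFP arrays (Sprr2d -0.23, Scel -0.29, Cdsn 0.097 and Klk10 0.16).

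Between GFP and untagged arrays, leaving out 1 array gave 861 to 3955 called genes, with 861 without carcinoma GFP and 1462 without papilloma GFP, 1 to 4 early and 0 to 2 late genes called, where the remaining GFP array is assumed to vary like the others. Array weights called 6819 genes and 7 early genes. Median centring called 1759 genes higher and 2442 lower (41.9% higher, against 60% without centring), 0 late genes, and a late median of -0.35. The mean of all probe sets called 0 late genes, and genes above the median gene had a late median of -0.36. Signs changed when 1 array was left out, with ranges of Alox12b -0.21 to 0.82, Aloxe3 -0.47 to 0.005, Cnfn -0.72 to 0.52, Evpl -1.005 to 0.12, Hrnr -0.18 to 0.10, Klk7 -0.033 to 0.26, Lce1a1 -0.037 to 0.11, Rptn -0.14 to 0.12, Sbsn -0.42 to 0.21, Spink5 -1.52 to 0.62, Sprr1a -1.27 to 0.068, Sprr3 -1.33 to 0.57 and Tgm3 -0.82 to 0.48. They also changed with array weights (Rptn 0.023, Alox12b -0.11 and Lce1a1 -0.045), median centring (Klk7 -0.12 and Lce1a1 -0.19) and the mean of probe sets (Rptn 0.031 and Casp14 -0.049). The cause of these changes was not tested. With so few arrays, differences of about 1 unit lie within the spread of most of these genes.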
